A study of Homo sapiens with 36 samples.

Results

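TGFBR2 and the regulatory regions before it were examined as 1 stretch of human chromosome 3, chr3:30060000-30800000 of the genome build hg19. Every H3K27ac region and every JUNB site of the deposited count tables that overlapped this stretch was taken as a member. There were 231 such H3K27ac regions among 288084 in 6 tables, and 93 JUNB sites among 146555. The stretch was chosen by measured values: its H3K27ac had been seen to fall with trametinib in these data. The changes with the drug at 24 h and at day 14 in both populations, and the comparisons of those responses between populations, are therefore given as a description with no test. Each H3K27ac region was 1001 bases wide and each JUNB site 201 bases, from start to end. Regions are named here by their centre on chromosome 3 in megabases (Mb), and their distances are from the JUNB site at the start of the gene, chr3:30647993-30648194. That this site lies at the start of TGFBR2, and which regions lie upstream of or within the gene, is background knowledge, since no hg19 annotation was used. In the RefSeq gene table, which is of another build, RBMS3 and an uncharacterized locus precede TGFBR2 and GADL1 follows it.

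TGFBR2 encodes the type II receptor for transforming growth factor beta, a serine and threonine kinase of the cell surface. It binds the ligand, recruits and phosphorylates the type I receptor TGFBR1, and so leads to phosphorylation of the transcription factors SMAD2 and SMAD3. In breast epithelial cells the pathway is known for growth arrest and for epithelial-mesenchymal transition. H3K27ac is an acetylation of histone H3 found at active promoters and enhancers. JUNB is a subunit of AP-1, a dimeric transcription factor that acts below the ERK kinases, and trametinib inhibits MEK1 and MEK2, the kinases that activate ERK.

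All libraries came from the SUM-229PE line, which was derived from a pleural effusion and stands for triple-negative breast cancer, sorted by EpCAM and CD49f into a population positive for both (POS) and one negative for both (NEG). H3K27ac was measured after DMSO in POS (n = 3) and NEG (n = 2) and after 30 nM trametinib for 24 h in POS (n = 3) and NEG (n = 2). It was also measured at day 0 and day 14 of 10 nM trametinib in both populations (n = 2 each), and in POSR1 and POSR2 (n = 2 each), 2 sets whose subpopulation is labelled POSR with no further definition in the labels. JUNB was measured after DMSO in POS and NEG (n = 2 each). Day 14 had no drug-free group, so drug and time in culture cannot be told apart there, and the dose also differed from that at 24 h. No label says that replicates were separate cultures, so the p-values measure only the spread between these libraries, which may be technical. A bulk level is a mean over cells, so a change in the share of cells with the mark and a change in each cell cannot be told apart. EpCAM and CD49f were not checked here.

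The start of the gene is shown because JUNB was bound there in both populations. The sequence is a RefSeq window of 300 bases at an annotated TGFBR2 start, chr3:30606351-30606650 of GRCh38.p14, plus strand. Its 1 match to the AP-1 motif TGANTCA, searched on both strands, lies at bases 245 to 251 and is in capitals.
TGFBR2: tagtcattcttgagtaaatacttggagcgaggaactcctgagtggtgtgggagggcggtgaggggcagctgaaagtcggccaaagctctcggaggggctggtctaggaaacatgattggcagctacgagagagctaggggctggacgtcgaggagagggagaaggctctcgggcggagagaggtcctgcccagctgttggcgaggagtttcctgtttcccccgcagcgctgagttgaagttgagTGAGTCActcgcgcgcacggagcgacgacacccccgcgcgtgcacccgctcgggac
The motif occurs in 7.71% of the 35116 promoter windows of this length in the same table. The other TGFBR2 window held no match. The match is a description of these letters, and the window was not lined up with the hg19 JUNB site.

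Libraries held between 1861227 and 9212006 H3K27ac reads in the regions of their table and between 4884516 and 8947351 JUNB reads. The median member region had 23.5 to 101 reads per H3K27ac library, and the median member site 20 to 44 reads per JUNB library. The shallowest libraries were those of NEG at day 14. Levels are given as CPM, the read count scaled to the reads in the table's regions with edgeR's TMM factors. They are comparable within a table and not between tables, because each table lists its own regions. The 231 regions joined into 85 elements when regions that overlapped by at least 500 bases were merged, of which 10 were listed in every table and 28 in a single one. Some of these elements still overlap in part. Joined at 1 base there were 72, of which 15 were listed in every table and 18 in a single one. The regions were dense upstream, and no table listed an H3K27ac region between positions 30639742 and 30664019, which hold the start of the gene and 3 JUNB sites. With no region listed there are no H3K27ac counts for that interval, so the level at the start of the gene is not known here.

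After DMSO, most of the stretch carried less H3K27ac in POS than in NEG, and 5 of its 7 regions with more lay within 80 kb upstream of the gene. Of 47 regions, 29 were lower in POS, against 38.0% of all tested regions, and 7 were higher, against 38.6% (edgeR quasi-likelihood test, Benjamini-Hochberg adjusted p under 0.05). The median log2 fold change, POS over NEG, was -1.08, and that of all tested regions was -0.04. Summed over the 47 regions, the level was 671.5 ± 45.8 CPM in POS (SD, n = 3) and 1000 ± 26.6 CPM in NEG (SD, n = 2). The 7 regions higher in POS lay at 30.209, 30.374, 30.568, 30.581, 30.586, 30.624 and 30.639 Mb. The DMSO libraries of both populations are also the controls of the 24 h responses that bore on the choice of the stretch. This comparison is therefore not independent of that choice.

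The region nearest the gene, at 30.639 Mb (chr3:30638151-30639152) and 9 kb upstream, was the strongest in POS that this table lists. The table of POSR also lists one at 30.385 Mb, where the same POS libraries held 130.7, 93.7 and 114.5 CPM on its scale. At 30.639 Mb H3K27ac was 93.4, 71.6 and 86.5 CPM in the 3 POS libraries and 24.2 and 25.5 CPM in the 2 NEG libraries. Every POS library lay far above both NEG libraries. The log2 fold change was 1.76 ± 0.21 (SE), with an edgeR adjusted p of 1.4e-09. The region at 30.581 Mb (chr3:30580709-30581710), 67 kb upstream, held 82.4, 58.4 and 67.6 CPM in POS and 20.1 and 16.7 CPM in NEG. The groups again did not overlap, and the log2 fold change was 1.92 ± 0.21 (SE; edgeR adjusted p = 2.3e-10), the largest gain of the stretch. Its neighbour at 30.586 Mb was also higher in POS, with 30.2 ± 1.20 CPM (SD, n = 3) against 13.1 ± 1.10 CPM (SD, n = 2).

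In this table the strongest H3K27ac of NEG lay farther upstream and within the gene. At 30.269 Mb (chr3:30268829-30269830), 379 kb upstream, the NEG libraries held 96.6 and 97.7 CPM and the POS libraries 33.1, 26.9 and 26.2 CPM. POS was lower at this region, with a log2 fold change of -1.75 ± 0.19 (SE; edgeR adjusted p = 1.1e-10). At 30.535 Mb (chr3:30534714-30535715), 113 kb upstream, the NEG libraries held 73.8 and 71.7 CPM and the POS libraries 13.2, 13.6 and 14.0 CPM. The log2 fold change there was -2.42 ± 0.18 (SE; edgeR adjusted p = 4e-15), and the adjacent region at 30.534 Mb was lower as well, at -1.85. The largest difference of all was at 30.486 Mb (chr3:30485236-30486237), 162 kb upstream. It held 2.28, 3.76 and 1.75 CPM in POS and 25.4 and 28.0 CPM in NEG, a log2 fold change of -3.41 ± 0.22 (SE; edgeR adjusted p = 1.4e-16). POS was thus close to the lowest levels listed in the stretch at a region that NEG marked clearly.

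Some strong regions were near equal between the populations. At 30.554 Mb (chr3:30553028-30554029), 95 kb upstream, POS held 75.3, 51.8 and 64.4 CPM and NEG 84.0 and 79.5 CPM. The groups did not overlap, but the log2 fold change of -0.35 ± 0.20 (SE) did not pass the test (edgeR adjusted p = 0.11); without POS replicate 1 it was -0.48 with an adjusted p of 0.0053. At 30.701 Mb (chr3:30700892-30701893), within the gene, POS held 77.0, 57.8 and 69.0 CPM and NEG 87.5 and 97.0 CPM. The log2 fold change was -0.44 ± 0.20 (SE; edgeR adjusted p = 0.044), and the call ended without POS replicate 3 (adjusted p = 0.22), NEG replicate 1 (0.16) or NEG replicate 2 (0.33). The other regions within the gene were called lower at 30.715 and 30.723 Mb and not called at 30.668 and 30.731 Mb. At 30.668 Mb the log2 fold change was 0.36, and 0.49 without POS replicate 2 (edgeR adjusted p = 0.0042).

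**Figure D1:**
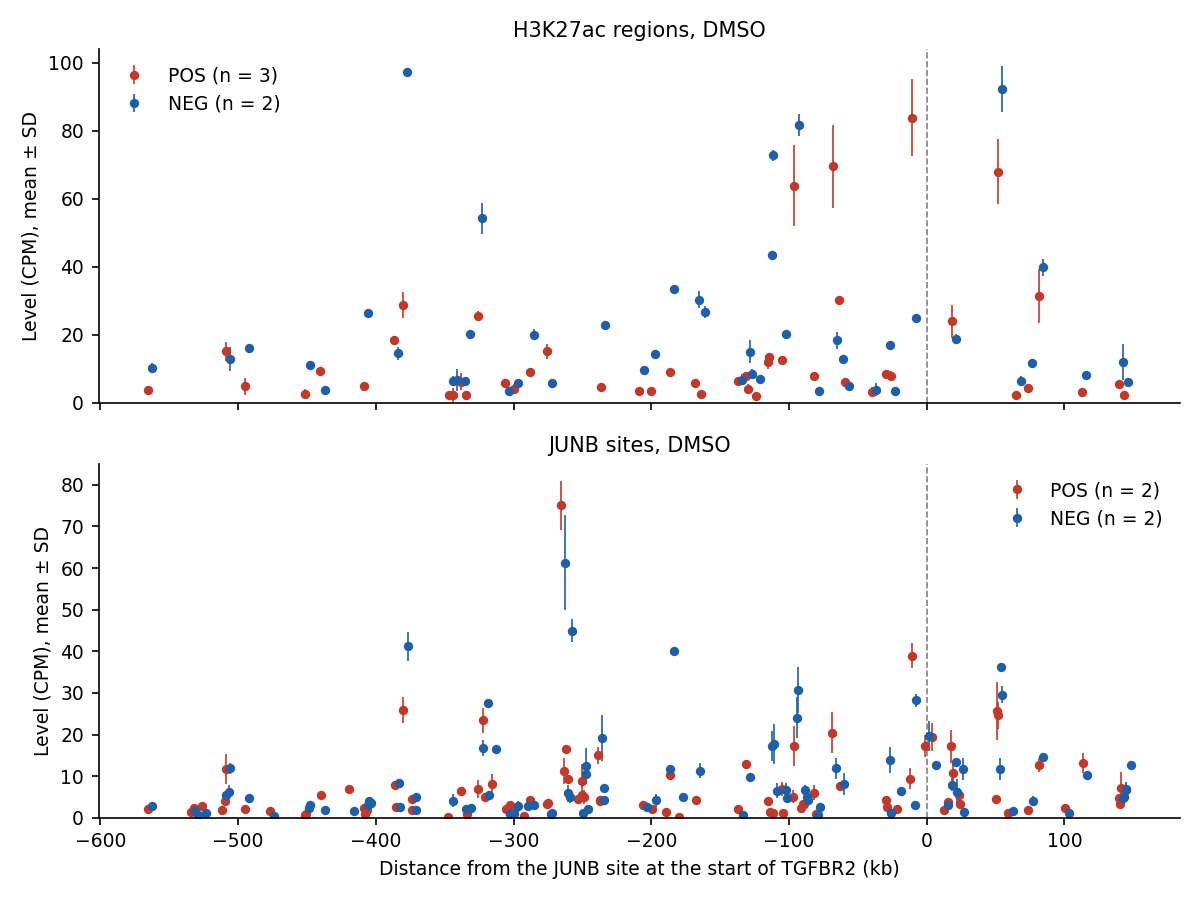
H3K27ac (upper) and JUNB (lower) after DMSO along the stretch, as CPM against the distance in kb from the JUNB site at the start of TGFBR2 (dashed line). Points are means of POS (red, drawn slightly to the left) and NEG (blue, slightly to the right), bars are SD, and the 2 regions at 30.581 and 30.639 Mb just before the gene are the ones where POS stands highest above NEG.

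JUNB occupied sites throughout the stretch in both populations, with sites stronger in either one interleaved. Of 93 sites, 21 were higher in POS, against 28.5% of all tested sites, and 35 were lower, against 29.4% (edgeR quasi-likelihood test, adjusted p under 0.05). The shares higher and lower were 22.6% and 37.6%, and the median log2 fold change, POS over NEG, was -0.26 against -0.02 over all tested sites. The count lower was not fixed either, being 21 in the authors' deposited DESeq2 results. The count higher in POS depended on single libraries and on the tool, being 10 without POS replicate 1, 12 without NEG replicate 2 and 8 with DESeq2. Summed over the 93 sites, JUNB was 683.8 ± 89.3 CPM in POS (SD, n = 2) and 875.9 ± 11.2 CPM in NEG (SD, n = 2).

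The site with the highest level, chr3:30383892-30384093 at 30.384 Mb and 264 kb upstream, had 79.2 and 70.9 CPM in POS and 53.2 and 69.3 CPM in NEG. The populations did not overlap, but the log2 fold change of 0.30 ± 0.23 (SE) did not pass the test (edgeR adjusted p = 0.25). A site 5 kb closer to the gene, chr3:30389189-30389390, was among the strongest of NEG and was lower in POS, at -2.27 (edgeR adjusted p = 1.9e-18). Between these was a site higher in POS, chr3:30387751-30387952, at 1.76 (edgeR adjusted p = 2.2e-09). Opposite differences thus stood a few kilobases apart.

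The largest JUNB gain in POS was at 30.568 Mb (chr3:30567608-30567809), with 7.33 and 4.77 CPM in POS and 0.708 and 0.871 CPM in NEG. The log2 fold change was 2.97 ± 0.45 (SE; edgeR adjusted p = 3.1e-10), on 6 and 5 reads in NEG. The largest loss was at 30.470 Mb (chr3:30469828-30470029), where the POS libraries held 1 read each and the NEG libraries 41 and 31 reads. The ratio of NEG to POS was 35.0, with a 95% exact counting interval of 9.36 to 295.0 (counting error only). At 30.536 Mb (chr3:30535540-30535741) JUNB was lower in POS by -3.56 ± 0.34 (SE; edgeR adjusted p = 1.6e-24). The H3K27ac region at 30.535 Mb that holds this site was the strong NEG region described above.

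At the start of the gene, the site chr3:30647993-30648194 had 19.2 and 15.5 CPM in POS and 17.1 and 22.1 CPM in NEG. The populations overlapped (log2 fold change -0.16 ± 0.24, SE; edgeR adjusted p = 0.60). At the site within the 30.639 Mb region, chr3:30638835-30639036, JUNB was 39.0 CPM in POS and 28.2 CPM in NEG on average, a log2 fold change of 0.47 ± 0.23 (SE; edgeR adjusted p = 0.063). The 1.76 for H3K27ac at that region was much larger. A weaker site just before it, chr3:30637661-30637862, was higher in POS by 1.66 (edgeR adjusted p = 9.1e-07). The region at 30.581 Mb held no JUNB site by the rule that 50% of a site must lie inside, but the site ending just before it, chr3:30580491-30580692, was higher in POS by 0.78 ± 0.25 (SE; edgeR adjusted p = 0.0032).

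Of the 47 H3K27ac regions, 34 held a JUNB site (72.3%, against 77.7% of all regions of that table). Where both marks were called, they differed in the same direction: 3 regions were higher in POS in both, 13 were lower in both, and 0 had opposite calls among the 16. Over all regions of the table with a site, 96.5% of the pairs called in both marks had the same direction, and 58.9% of pairs were called in both, against 47.1% here. Another 9 regions with a site were called for H3K27ac alone, 2 higher and 7 lower in POS, and 3 for JUNB alone. Of the 93 sites, 28 lay outside every H3K27ac region of the stretch, and 9 of these were higher and 12 lower in POS. Over all tested sites, inside or outside regions, 28.5% were higher and 29.4% lower, and the share among outside sites alone was not computed. The marks came from the same 2 populations and neighbouring regions are not independent, so these counts are a description.

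**Figure D2:**
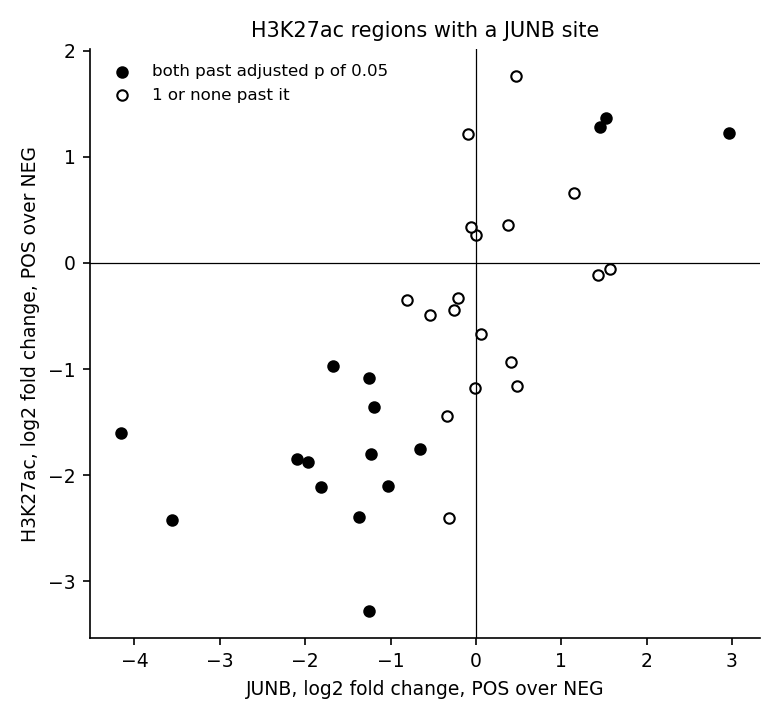
Log2 fold change, POS over NEG, of H3K27ac (vertical) against that of the strongest JUNB site inside the region (horizontal) for the 34 regions with a site. Filled points passed the test in both marks, and all 16 of them lie at the lower left (13) or the upper right (3) of the 0 lines.

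With 24 h of trametinib H3K27ac was lower over most of the stretch in POS. Of 37 regions, 26 were called lower, against 26.0% of all tested regions, and 1 higher, against 26.7%. The median log2 fold change, trametinib over DMSO, was -1.02, against 0.02 over all tested regions, and the summed level was 799.7 ± 81.9 CPM with DMSO and 422.3 ± 13.4 CPM with trametinib (SD, n = 3 each). Since this drop was part of why the stretch was chosen, nothing is read from those counts. The POS libraries with DMSO are the same ones that entered the comparison with NEG.

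The lowest value relative to DMSO was at 30.554 Mb (chr3:30553028-30554029), with 74.6, 50.4 and 63.1 CPM after DMSO and 4.70, 6.32 and 6.13 CPM after trametinib. Every library with trametinib lay far below every library with DMSO, a log2 fold change of -3.46 ± 0.18 (SE). The region at 30.269 Mb went from 32.7, 26.2 and 25.7 CPM to 3.76, 5.47 and 3.23 CPM, at -2.82 ± 0.17 (SE), and the region at 30.328 Mb from 54.1 to 11.5 CPM on average, at -2.24. The 2 regions that marked POS most kept most of their level. At 30.581 Mb the libraries held 96.4, 66.0 and 77.9 CPM after DMSO and 63.3, 61.5 and 71.2 CPM after trametinib, groups that overlapped. At 30.639 Mb they held 92.5, 69.7 and 84.8 CPM and 65.3, 60.5 and 70.1 CPM, which overlapped in 1 library. The log2 fold changes of -0.30 ± 0.16 and -0.34 ± 0.16 (SE) were not called, but both were called without DMSO replicate 2, at -0.43 and -0.45. Both were also called lower with total counts and no scaling factor, at -0.29 and -0.33. At 30.639 Mb the call was also made with no low-count filter (-0.35), with DESeq2 (-0.35) and with a replicate block (-0.33). The other settings tried left both uncalled.

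The 1 region called higher, at 30.668 Mb (chr3:30667344-30668345), lies within the gene 20 kb from its start. It held 28.3, 18.5 and 23.4 CPM after DMSO and 36.0, 32.0 and 38.4 CPM after trametinib. The groups did not overlap, and the log2 fold change was 0.58 ± 0.15 (SE). Without DMSO replicate 1 there were 2 regions called higher. Farther inside the gene, at 30.701 Mb, the level went from 76.2, 56.3 and 67.6 CPM to 38.8, 32.8 and 41.8 CPM, at -0.82 ± 0.16 (SE).

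In NEG, 24 h of trametinib was accompanied by lower H3K27ac at most listed regions. Of 48 regions, 42 were called lower, against 19.3% of all tested regions, and 0 higher, against 17.2%. All 48 log2 fold changes were below 0, with a median of -1.25 against 0.04 over all tested regions; 0 were higher at an unadjusted edgeR p under 0.05 and 0 with DESeq2. The summed level was 1395 ± 27.7 CPM with DMSO and 558 ± 28.5 CPM with trametinib (SD, n = 2 each). These counts too are a description, since the choice of the stretch used them.

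The strong NEG region at 30.269 Mb (chr3:30268895-30269896) held 106.1 and 111.5 CPM after DMSO and 19.6 and 20.6 CPM after trametinib, a log2 fold change of -2.44 ± 0.12 (SE), the lowest of the 48. The region at 30.384 Mb (chr3:30383211-30384212), which holds the strongest JUNB site, went from 73.9 and 75.7 CPM to 13.9 and 16.9 CPM, at -2.28 ± 0.14 (SE). At 30.399 Mb (chr3:30398771-30399772), 249 kb upstream, it went from 61.6 and 57.4 CPM to 12.3 and 12.4 CPM, at -2.27 ± 0.15 (SE). The region beside the gene at 30.639 Mb, 1 of the 6 not called, had the smallest change. It held 28.6 and 31.5 CPM after DMSO and 29.7 and 27.6 CPM after trametinib. These libraries overlapped and the log2 fold change was -0.07 ± 0.14 (SE). At 30.701 Mb, within the gene, the level went from 124.2 and 130.5 CPM to 84.3 and 69.2 CPM (-0.73 ± 0.10, SE), and it stayed the highest NEG region of the stretch after trametinib.

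At day 14 in POS most regions of the stretch again had less H3K27ac, and a pair within the gene had more. Of 27 regions, 26 passed the filter on low counts; the other, at 30.346 Mb, averaged 2.09 CPM at day 0 and 0.767 CPM at day 14. Of the 26, 19 were called lower, against 38.2% of all tested regions, and 3 higher, against 39.5%. The median log2 fold change, day 14 over day 0, was -1.32, against 0.03 over all tested regions. The summed level of the 27 regions was 697.1 ± 67.3 CPM at day 0 and 337.3 ± 2.78 CPM at day 14 (SD, n = 2 each). The comparison of the day 14 responses that bore on the choice of the stretch holds these values, so they too are given with no test.

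The lowest POS value relative to day 0 was at 30.535 Mb (chr3:30534374-30535375), from 16.8 and 10.8 CPM to 1.11 and 0.980 CPM. The log2 fold change was -3.74 ± 0.38 (SE). The region at 30.701 Mb within the gene (chr3:30700917-30701918) held 71.6 and 63.1 CPM at day 0 and 7.75 and 6.47 CPM at day 14. Both day 14 libraries lay far below both day 0 libraries, a log2 fold change of -3.25 ± 0.17 (SE). The region at 30.620 Mb went from 9.46 and 8.08 CPM to 1.29 and 0.980 CPM, at -2.93 ± 0.44 (SE). At 30.554 Mb the level went from 53.7 and 45.5 CPM to 5.72 and 9.80 CPM, at -2.70 ± 0.18 (SE).

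At both places that marked POS most, the regions listed at day 14 were called lower. The one at 30.639 Mb was shifted from that listed at 24 h and overlapped it by less than 500 bases. At 30.639 Mb (chr3:30638741-30639742) the libraries held 73.9 and 61.0 CPM at day 0 and 22.7 and 27.6 CPM at day 14, a log2 fold change of -1.44 ± 0.14 (SE). At 30.581 Mb they held 80.7 and 61.6 CPM and then 37.3 and 33.5 CPM, at -1.03 ± 0.14 (SE). The 3 regions called higher were at 30.518, 30.668 and 30.671 Mb, and the latter pair stand side by side within the gene. At 30.671 Mb (chr3:30670101-30671102), listed in this table, H3K27ac went from 18.4 and 16.5 CPM to 41.4 and 42.5 CPM (1.25 ± 0.15, SE). At 30.668 Mb it went from 26.95 and 25.4 CPM to 41.2 and 46.1 CPM (0.73 ± 0.15, SE). At 30.518 Mb, 130 kb upstream, it went from 9.10 and 8.68 CPM to 14.2 and 18.0 CPM (0.85 ± 0.22, SE). The pair within the gene were the strongest regions of the stretch at day 14 after the one at 30.384 Mb, which held 55.9 CPM in both libraries.

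In NEG at day 14 the drop was again spread over the stretch, but some regions, upstream and within the gene, kept most of their level. Of 29 regions upstream of the gene, 6 were not called, among them 30.468 and 30.518 Mb (log2 fold changes -0.25 and -0.13). Of 5 regions within the gene, 3 were called lower. Of 36 regions, 27 were called lower, against 23.8% of all tested regions, and 0 higher, against 24.8%; 0 were higher at an unadjusted edgeR p under 0.05 and 0 with DESeq2. The median log2 fold change, day 14 over day 0, was -1.06, against 0.00 over all tested regions, and the summed level was 1496 ± 66.9 CPM at day 0 and 673.2 ± 15.2 CPM at day 14 (SD, n = 2 each). The choice of the stretch used these counts and nothing is read from them.

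The lowest NEG value relative to day 0 was at 30.399 Mb (chr3:30398200-30399201), with 70.6 and 65.1 CPM at day 0 and 7.90 and 6.73 CPM at day 14, a log2 fold change of -3.22 ± 0.21 (SE). The strongest region at day 0, at 30.384 Mb, went from 155.2 and 138.6 CPM to 50.0 and 46.6 CPM, at -1.61 ± 0.12 (SE). At 30.535 Mb the level went from 106.7 and 93.6 CPM to 21.6 and 15.4 CPM, at -2.45 ± 0.16 (SE). At 30.639 Mb it was 42.8 and 34.7 CPM and then 32.6 and 37.0 CPM, which overlapped (-0.17 ± 0.16, SE). At 30.701 Mb it was 117.4 and 117.0 CPM and then 83.7 and 86.5 CPM (-0.46 ± 0.11, SE), the highest NEG level of the stretch at day 14. The regions listed at 30.384, 30.399, 30.639 and 30.701 Mb were shifted from those of NEG at 24 h. They overlapped those by less than 500 bases, so the 2 times are not of the same bases there. The call at 30.581 Mb (-0.77 ± 0.23, SE) was lost without day 0 replicate 2, at -0.46.

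**Figure D3:**
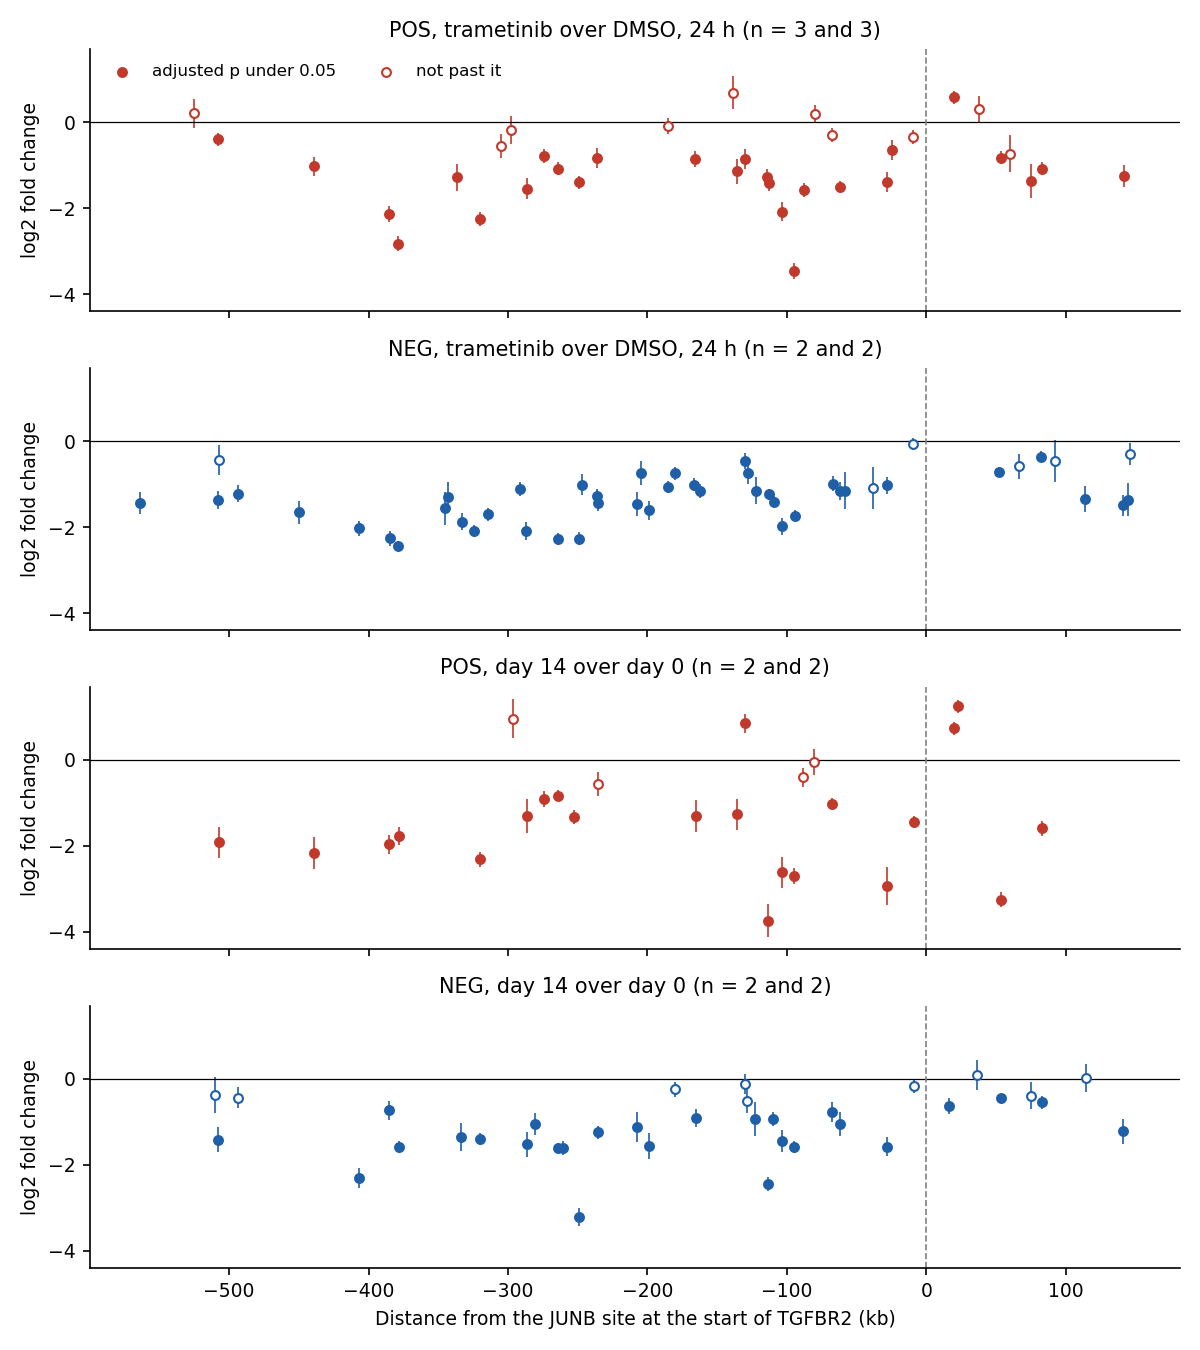
Log2 fold change of H3K27ac along the stretch, against the distance in kb from the JUNB site at the start of TGFBR2 (dashed line), for POS and NEG after 24 h of trametinib and at day 14. Points are regions with SE bars, filled where the adjusted p was under 0.05. Nearly all points lie below 0, and the region listed 9 kb upstream at each time lies close to 0 in NEG.

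The POS and NEG responses were set against each other on regions that overlapped by at least 50% between the populations' tables. The stretch had 14 such regions at 24 h and 16 at day 14, and the choice of the stretch had used these differences as well. On these matched regions the fold changes of POS at day 14 are less negative than in its own table, -2.74 against -3.25 at 30.701 Mb, because library scaling used the matched regions. Those of NEG at that region were -0.47 and -0.46. The differences between the populations at day 14, and their calls, therefore depend on this scaling. At 24 h, 1 matched region had a response called higher in NEG, against 14.1% of all matched regions, and 4 were called lower, against 11.5%. At 30.554 Mb POS changed by -3.34 and NEG by -1.67 on the log2 scale, which differ by 1.67 ± 0.21 (SE). At 30.384 Mb POS changed by -0.96 and NEG by -2.22, which differ by -1.26 ± 0.19 (SE). The regions at 30.140, 30.463 and 30.581 Mb had differences, NEG minus POS, of -1.04, -1.05 and -0.76.

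At day 14, 5 matched regions had a response called higher in NEG, against 31.9% of all matched regions, and 3 were called lower, against 30.7%. The widest difference was at 30.701 Mb within the gene, where POS changed by -2.74 and NEG by -0.47, which differ by 2.27 ± 0.21 (SE). The region beside the gene at 30.639 Mb changed by -0.94 in POS and by -0.18 in NEG, which differ by 0.76 ± 0.21 (SE). The other 3 called higher in NEG, at 30.263, 30.554 and 30.731 Mb, differed by 0.70, 0.59 and 0.52. The 3 called lower were at 30.384 Mb (-1.30), 30.412 Mb (-1.20) and 30.518 Mb (-1.49). The count of 5 was 2 without POS day 14 replicate 1 or NEG day 0 replicate 2. It was 3 without POS day 0 replicate 1, NEG day 14 replicate 1, NEG day 14 replicate 2 or NEG day 0 replicate 1.

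**Figure D4:**
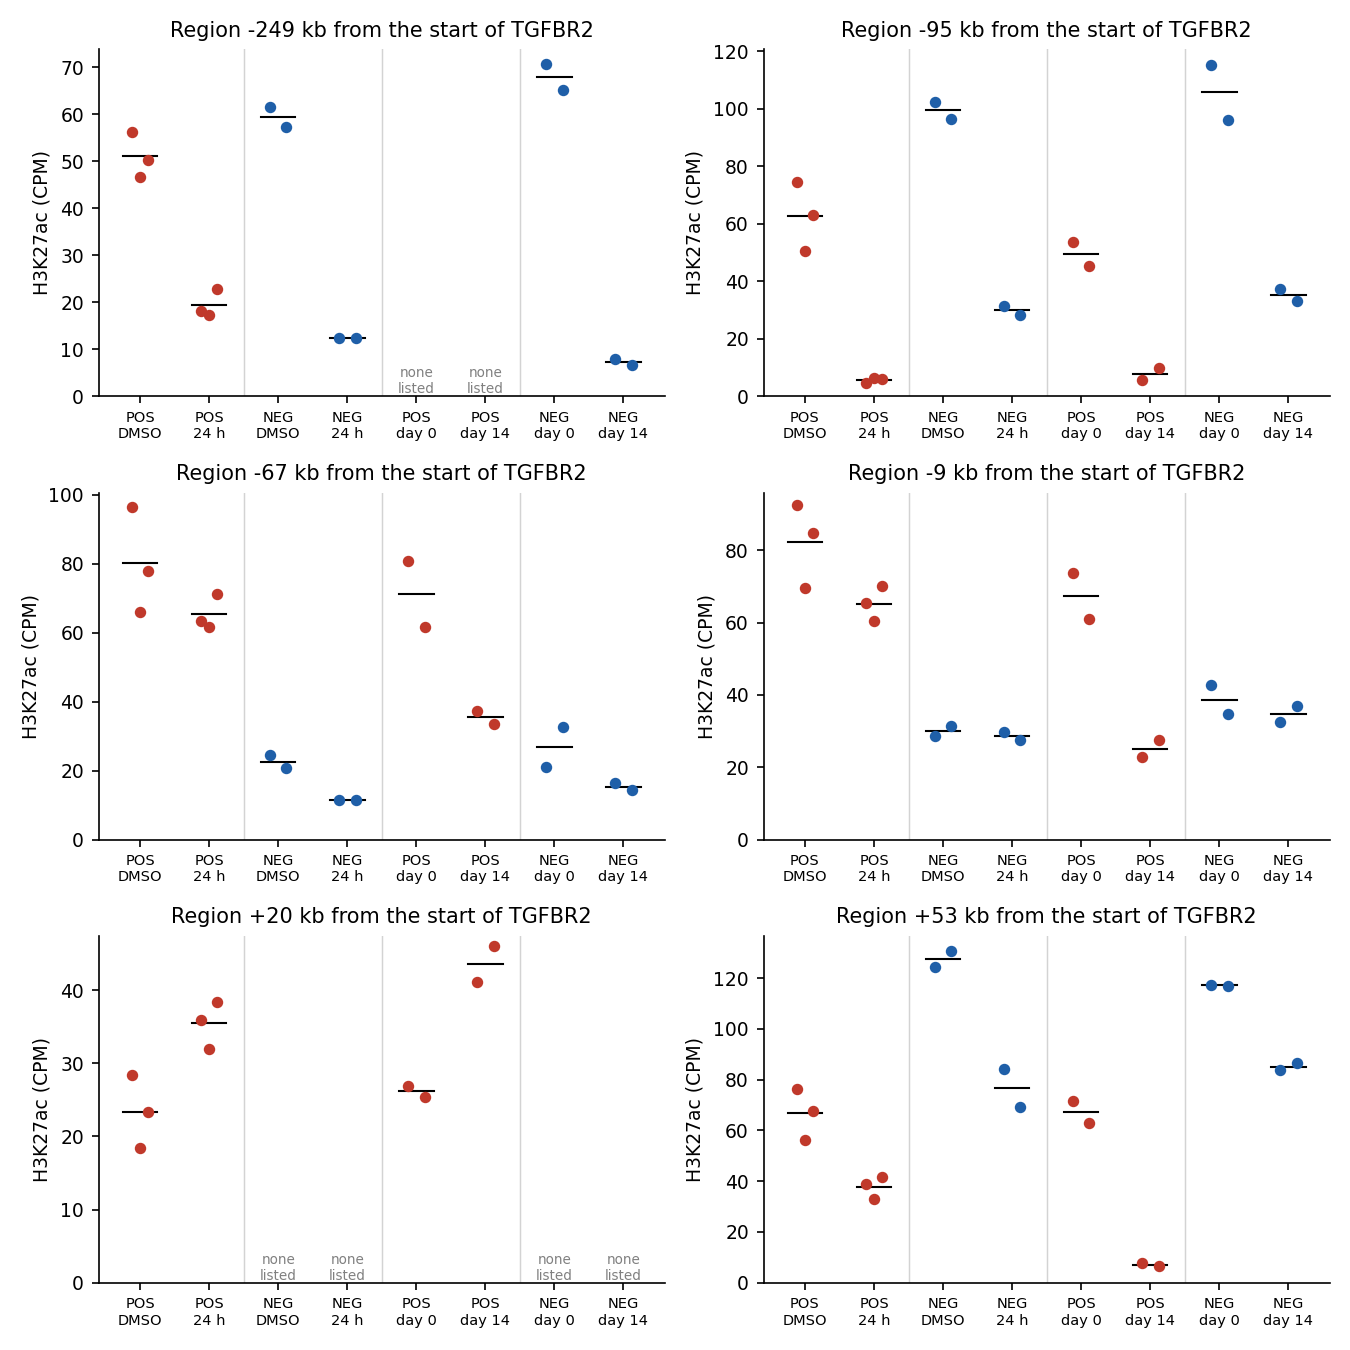
H3K27ac in every library (points, CPM) at 6 regions, named by their distance from the start of TGFBR2, with lines at group means, for POS (red) and NEG (blue). Levels compare only within a pair of groups of 1 table; "none listed" marks tables with no region within about 1 kb. The region 53 kb inside the gene drops from above 60 to below 10 CPM in POS at day 14, and from about 117 to about 85 CPM in NEG.

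In POSR the share of regions called different from POS after DMSO was near that of all regions in 1 direction, lower, and below it in the other. Of 36 regions, 8 (22.2%) were lower in POSR, against 18.5% of all tested regions, and 0 were higher, against 17.5% (edgeR quasi-likelihood test, adjusted p under 0.05); 0 were higher at an unadjusted p under 0.05 and 0 with DESeq2. The median log2 fold change, POSR over POS, was -0.22, against 0.01 over all tested regions. The summed level was 784.7 ± 91.0 CPM in POS (SD, n = 3), 690 ± 42.5 CPM in POSR1 and 606 ± 22.4 CPM in POSR2 (SD, n = 2 each). The POS libraries are again those of the comparisons with NEG and with trametinib, so this comparison too is not independent of the choice of the stretch.

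The largest difference was at 30.620 Mb (chr3:30619441-30620442), 28 kb upstream, with 8.31, 9.03 and 8.93 CPM in POS, 1.97 and 2.98 CPM in POSR1 and 3.83 and 3.68 CPM in POSR2. All 4 POSR libraries lay below all 3 POS libraries, and the log2 fold change was -1.48 ± 0.26 (SE; edgeR adjusted p = 0.0021). At 30.263 Mb POS held 17.1, 18.5 and 17.3 CPM, POSR1 8.15 and 7.40 CPM and POSR2 10.9 and 10.5 CPM, a log2 fold change of -0.93 ± 0.19 (SE; edgeR adjusted p = 0.0042). At 30.400 Mb (chr3:30399130-30400131) POS held 54.9, 37.5 and 48.6 CPM, POSR1 28.1 and 30.3 CPM and POSR2 13.4 and 15.6 CPM. That region was lower in POSR by -1.11 ± 0.28 (SE; edgeR adjusted p = 0.013), and it lost the call without POS replicate 1 (adjusted p = 0.064) or POS replicate 3 (0.052). The others called lower were at 30.269, 30.311, 30.362, 30.535 and 30.723 Mb, with log2 fold changes between -1.41 and -0.49.

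The number of calls of POSR depended on single libraries and on the model. With the replicate number as a block, a number not known to pair the samples, 2 were lower. There were 3 lower without POS replicate 3, 4 without POS replicate 1 or POSR1 replicate 1, and 5 without either POSR2 library, and 1 was called higher without POS replicate 1 or POSR2 replicate 1. The call at 30.535 Mb (log2 fold change -0.54; edgeR adjusted p = 0.041) was lost without any 1 of the 7 libraries, with adjusted p of 0.054 to 0.14. The call at 30.269 Mb (-0.49; adjusted p = 0.028) was lost without POSR1 replicate 1 (0.067), POSR2 replicate 2 (0.052), POS replicate 1 (0.11) or POS replicate 3 (0.061). The strong regions beside the gene were not called, at -0.16 ± 0.17 for 30.581 Mb and -0.34 ± 0.14 for 30.639 Mb (SE; edgeR adjusted p = 0.48 and 0.074). Without POS replicate 2 the latter passed, at -0.45 (adjusted p = 0.021), as did 30.701 Mb at -0.50 (adjusted p = 0.046), and without POS replicate 1 the region at 30.668 Mb passed at 0.52 (adjusted p = 0.046).

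POSR1 and POSR2 differed from each other at 10 of the 36 regions. POSR2 was higher at 3, against 21.2% of all tested regions, and lower at 7, against 19.3%. The largest difference was at 30.413 Mb (chr3:30412150-30413151), with 13.6 and 14.4 CPM in POSR1 and 2.75 and 5.25 CPM in POSR2, around the 8.79, 6.87 and 6.36 CPM of POS. The log2 fold change, POSR2 over POSR1, was -1.82 ± 0.22 (SE; edgeR adjusted p = 7.9e-15). The region at 30.400 Mb was lower in POSR2 by -1.01 ± 0.18 (SE; edgeR adjusted p = 2.3e-07). The regions at 30.263, 30.482 and 30.512 Mb were higher in POSR2, by 0.47, 0.83 and 0.54; without POSR1 replicate 1, POSR1 replicate 2 or POSR2 replicate 2 the count was 1.

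**Figure D5:**
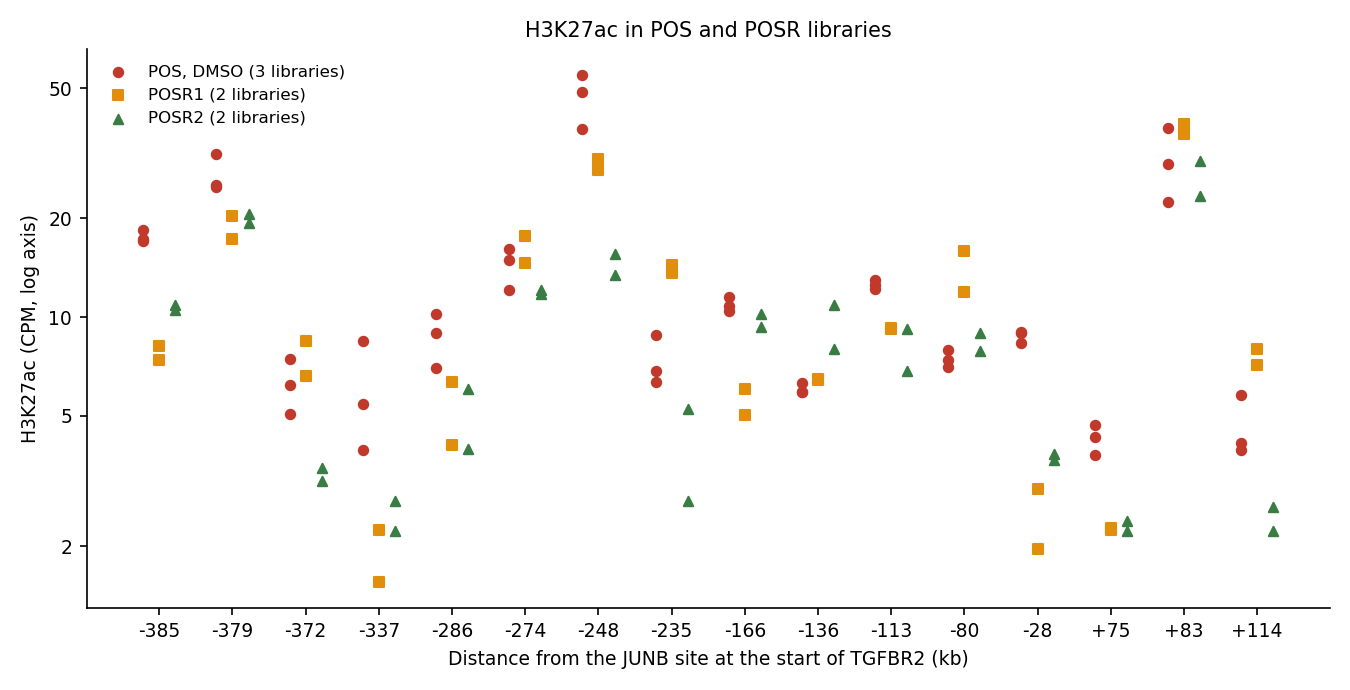
H3K27ac (CPM, log axis) in the POS libraries after DMSO (circles), POSR1 (squares) and POSR2 (triangles) at the 16 regions called in either comparison of POSR, labelled by distance in kb from the JUNB site at the start of TGFBR2. At -28 kb all POSR libraries lie below all POS libraries, and at -235 kb POSR1 and POSR2 lie on either side of POS.

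In the authors' deposited tables of their DESeq2 results, fewer members passed an adjusted p of 0.05. Of the POS and NEG regions, 5 were higher and 23 lower in POS in the authors' deposited table, and all 28 were also called here. For POS at day 14 the authors' deposited table had 2 higher and 16 lower, all 18 called here. For POSR the authors' deposited table had 0 higher and 5 lower, and for JUNB 6 higher and 21 lower, each of them called here as well. For POS at 24 h the authors' deposited table had 1 higher and 25 lower, and 25 of these were also called here. For NEG the authors' deposited tables had 0 higher and 29 lower at 24 h, and 0 higher and 14 lower at day 14, all called here.

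The edges of the stretch were set by position. In the comparison of POS and NEG, the first region inside on the side away from the gene, chr3:30083673-30084674, had a log2 fold change of -1.44 and the last one outside, chr3:29978706-29979707, of 0.02. On the other side the last region inside, chr3:30792472-30793473, had -1.44 and the first outside, chr3:31045764-31046765, -1.99.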

How the data were processed

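Chromatin immunoprecipitation was sequenced for H3K27ac in 22 libraries and for JUNB in 4; 10 inputs have no count column and were not used here. The build was hg19 and the tools named are STAR 2.5.2b, cutadapt 1.12, MACS2, DESeq2 and featureCounts, per the submitters' processing notes, with no step or setting for any of them. Raw counts per region and library were deposited by the authors in 7 tables, each with its own union of regions, beside 7 tables of their DESeq2 results. In these deposited tables the log2 fold changes and p-values are the authors'; NEG at 24 h had 10 members and NEG at day 14 had 1 with no adjusted p. Treated columns labelled GSK, without the word trametinib, were taken as 24 h trametinib because their table is named for it. Whether region starts are 0-based or 1-based is not stated in any header.

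Each whole table was tested with edgeR 4.0.16 (limma 3.58.1, R 4.3.3): TMM factors, the default filter with a minimum count of 10, the quasi-likelihood test over the libraries of the groups compared (the 4 POSR libraries in 1 arm), and Benjamini-Hochberg adjustment over all its regions. The standard error is the log2 fold change over the square root of F. A JUNB site was in a region when 50% of it lay inside. The day 14 change of POS was planned as a test and is given as a description. Scripts were tested on simulated data. DESeq2 1.42.0, other scalings, no filter, a replicate block and leaving out each library were tried. Total counts per library set the precision. No pair of replicates agreed within sampling noise: chi-square per degree of freedom was 1.10 to 4.79.

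The stretch, the members and the regions named were chosen with earlier results of these data known. By rule the text names the largest change of each comparison described, the 4 strongest elements found in every table, and the highest and most changed JUNB sites; the regions at 30.384, 30.400, 30.518, 30.639, 30.668, 30.671 and 30.701 Mb, and the others named for their calls, were chosen after their values were seen. No genes were assigned to regions, and other genes of the pathway were not analysed here.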

Additional observations from a re-analysis of the deposited data

Results flagged for a closer look

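At 30.535 Mb the 4 POSR libraries held 9.27, 9.19, 9.21 and 6.83 CPM of H3K27ac; the gap below the other three, set by POSR2 replicate 2, takes 0.966 of their range, above Dixon's critical value. Chance flags about 1 in 20 such sets, and 36 regions were examined. The difference between the POS and NEG responses to trametinib was called at 5 of 14 matched regions at 24 h and at 8 of 16 at day 14, among them 30.554 Mb (1.67) and 30.701 Mb (2.27). At 24 h 1 was higher in NEG and 4 lower, against 14.1% and 11.5% of all matched regions. At day 14 it was 5 and 3, against 31.9% and 30.7%. The stretch was chosen with these responses known, so the counts are a description.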

How the results depend on the processing

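Whether replicate numbers pair the samples was not settled. In POS at 24 h the deviations of same-numbered libraries correlated at 0.129, 0.382 and -0.009, and in the other sets at -0.107 to 0.09. Where both groups had 2 libraries, the deviations within a group mirror each other, so those sets cannot decide it. With the number as a replicate block, 2 regions were lower in POSR and 1 was higher in POSR2 than in POSR1. The replicate block ended the calls at 30.701 Mb between POS and NEG (adjusted p = 0.28) and at 30.269, 30.400 and 30.535 Mb for POSR (0.12, 0.098 and 0.21), and called 30.639 Mb at 24 h in POS (-0.33). With total counts and no factor, 13 regions were lower in POSR and 8 day 14 responses were higher in NEG; the latter count was 9 with factors of each full table, 3 at 80% overlap and 2 with DESeq2. DESeq2 called 5 regions lower in POSR, 1 higher in POSR2 than in POSR1 and 8 JUNB sites higher in POS. Leaving out 1 library gave 3 to 9 regions lower and 0 to 1 higher in POSR, 1 to 3 higher in POSR2 than in POSR1, 10 to 18 JUNB sites higher in POS, 1 to 2 regions higher in POS at 24 h and 2 to 4 day 14 responses higher in NEG. With DESeq2 size factors in edgeR, the adjusted p at 30.701 Mb between POS and NEG was 0.09. Of the alternatives run on counts of members, 190 stayed within 1.5 times the count given and 29 did not. Of those run on single named regions, 744 kept their direction or stayed uncalled and kept their side of the threshold, 29 lost and 27 gained a call, and 0 reversed. Joining regions at 1 base gave 72 elements. The cause of these differences was not tested. Read counts were low at the weaker regions, of 1 to 5 CPM, and libraries were shallowest in NEG at day 14.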
